A study of Mus musculus with 55 samples.

Results

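At 3 months after a crush of the optic nerve, the crushed optic nerve head (ONH) had lower levels of 5 of 28 axonal cytoskeleton genes, 6 of 26 axonal transport genes and 3 of 35 myelin genes than its contralateral partner, and higher levels of single inflammatory, growth factor and matrix transcripts. Most genes of each of these groups did not pass the test. Of 18823 probe sets tested, 87 passed (0.462%), 39 up-regulated (0.207%) and 48 down-regulated (0.255%). The down-regulated ones included the axonal spectrin Sptbn4, the neurofilament chains Nefm and Nefl, the neuronal kinesin Kif5a and the myelin gene Mobp. Lcn2, which encodes the secreted iron-trafficking protein lipocalin 2, had the largest rise among the genes named here.

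The comparison used 10 of the 55 arrays of the series, 5 from crushed and 5 from contralateral ONHs collected 3 months after surgery, chosen by their labels. All animals were C57Bl/6 female mice, 6 to 8 weeks old at surgery, and the labels name no other allele or treatment. The left optic nerve was crushed behind the globe and the right eye was left intact. The tissue was the ONH with the start of the transition zone where axons become myelinated, and the ONHs of a pair of mice were pooled on each array. The left and right eyes of the same mice made up a pair. Crushed and contralateral samples with the same replicate number, 1 to 5, were taken as the 5 pairs. Every crushed ONH came from a left eye and every contralateral ONH from a right eye, so side and crush cannot be told apart. The contralateral eye shared the animal with an injured eye and is not a naïve control.

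Retinal ganglion cell axons leave the eye through the ONH and become myelinated by oligodendrocytes only behind it. A crush behind the globe leaves the axon segments in the ONH joined to their cell bodies, and these segments are lost as the injured ganglion cells die. Debris of axons and myelin is taken up by microglia and macrophages. Astrocytes, the main glia of the ONH, become reactive and persist in the scar. In bulk tissue, fewer cells of a type and less RNA per cell cannot be told apart.

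Values below are intensities of Affymetrix probe sets on a linear scale. Fold changes are on the log2 scale, crushed minus contralateral, after values were set to at least 20, and are given ± SE over 5 pairs. A probe set passed, and is called up- or down-regulated, at a limma adjusted p under 0.05 and at least a 2-fold change. Counts of genes use the brightest probe set of each gene. Among 10468 genes tested this way, 26 were up-regulated (0.248%) and 27 down-regulated (0.258%), and 400 (3.82%) were higher and 374 (3.57%) lower in crushed ONHs with no overlap between the groups.

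Some samples stood apart. The mean log2 level of 32 photoreceptor genes, which the ONH should lack, was 12.78, 11.05 and 10.64 in contralateral samples 1 to 3, but 6.56 and 6.98 in samples 4 and 5. It was 7.40, 6.40, 7.03 and 7.94 in crushed samples 1 to 4 and 11.41 in crushed sample 5. The rod gene Sag was high in the same 4 samples, with 17117, 11378, 9366, 179.9 and 463 in contralateral samples, 13635 in crushed sample 5 and at most 1339 in the other crushed samples. None of the 32 photoreceptor genes passed in limma, and none had an unadjusted p under 0.05. Even so, 31 of the 32 differences were negative, with a median log2 difference of -1.66 (-3.37 without pair 5), larger in size than the medians of the axonal, synaptic and myelin lists given below. Of 31 genes of other retinal neurons and Müller glia, 0 passed, with a median log2 difference of -0.27. At an unadjusted limma p under 0.05, 8 of these were lower and 0 higher, against 8.00% and 6.91% of all genes. Their mean log2 level was 10.84 in contralateral sample 1 and 9.58 in crushed sample 5, against 7.66 to 8.85 in the other samples. Contralateral sample 1 also had the highest lens level (9.16, against at most 6.96 elsewhere) and the lowest level of fibroblast genes. Crushed sample 3 had a skeletal muscle level of 10.78, against at most 9.11 in the others. The defining genes of the tissue were bright on all arrays: Gfap, the astrocyte filament, lay at 11709 to 14274 in contralateral and 10274 to 12895 in crushed samples. The part of these differences between samples in the results was not tested beyond the values given beside them.

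**Figure D1:**
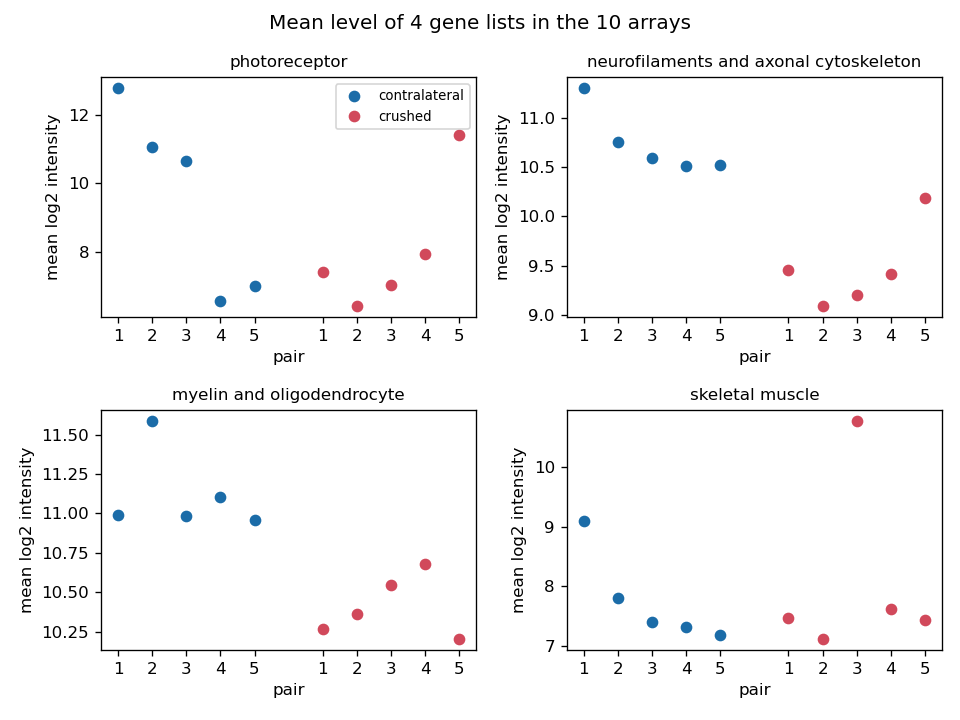
Mean log2 intensity of photoreceptor, axonal cytoskeleton, myelin and skeletal muscle genes (vertical axes) in each of the 10 arrays (pairs 1 to 5 of contralateral and crushed ONHs). Photoreceptor levels were high in contralateral samples 1 to 3 and crushed sample 5, where the axonal level (10.19) was also the highest of the crushed samples, while its myelin level (10.20) was the lowest.

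The number of changed probe sets depended strongly on which pairs were included. With a single pair left out, between 0 and 71 probe sets passed: 2 without pair 1, 0 without pair 2, 3 or 4, and 71 without pair 5. Without pair 2, 3 or 4, an unadjusted limma p under 0.05 was found for 1829, 1531 and 2470 probe sets in turn. All 87 had moved the same way in 5 of 5 pairs, so their direction could not turn when a pair was left out. Of them, 85 kept a 2-fold change. Without the pair as a block, 302 probe sets (1.60%) passed, 176 up-regulated and 126 down-regulated. With the photoreceptor level as a covariate, 48 passed with the block and 214 without it. In the fit with that covariate and the block, 5 axonal cytoskeleton, 2 axonal transport, 1 synaptic and 1 myelin gene were down-regulated and 1 reactive astrocyte gene was up-regulated. No gene passed there in the lists of oligodendrocyte precursors, growth factors, T and NK cells, neutrophils, microglia, extracellular matrix or fibroblasts.

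The largest fall was that of Sptbn4, a transcript of the axonal cytoskeleton. Of 28 genes of neurofilaments and axonal cytoskeleton tested, 5 were down-regulated, none was up-regulated and 23 did not pass. Their median log2 fold change was -0.55, against -0.04 over all genes tested. Of the 28, 11 were lower in every crushed sample than in any contralateral one, against 3.57% of all genes. Sptbn4 encodes beta-IV spectrin, which anchors channels at the axon initial segment and at nodes of Ranvier. Its intensity was 3373, 5407, 5897, 5153 and 4690.2 in contralateral samples 1 to 5 and 29.2, 7.86, 9.76, 7.58 and 1816 in crushed samples 1 to 5. Crushed samples 1 to 4 were at or near the floor and sample 5 kept a high value, still below every contralateral one. Its log2 fold change was -6.50 ± 0.99 (limma, adjusted p = 0.0498). Without pair 5 it was -7.79 (adjusted p = 0.00115) and without pair 1 -6.42 (adjusted p = 0.106). In pair 4, whose eyes had photoreceptor levels of 6.56 and 7.94, the difference was -8.01, and in pair 5 it was -1.37.

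The neurofilament chains fill the axon and set its calibre. The medium chain gene Nefm lay at 1996, 793, 856, 682 and 729.8 in contralateral samples and at 38.4, 25.3, 30.1, 36.7 and 134 in crushed ones. Contralateral sample 1 was the highest of all and crushed sample 5 the highest of its group, and the groups did not overlap. Nefm fell by 4.43 (SE 0.44, limma, adjusted p = 0.0246). The light chain gene Nefl measured 5582, 1377, 1478, 1044 and 1549 in contralateral and 87.3, 34.3, 53.8, 80.9 and 449.5 in crushed samples, with the same samples standing out. Its log2 fold change was -4.32 ± 0.57 (limma, adjusted p = 0.0391). The heavy chain gene Nefh lay at 7294 to 11804 in contralateral samples and at 97.03, 15.8, 27.9, 59.4 and 4385 in crushed ones, and its log2 difference of -6.43 ± 1.11 did not pass (limma, adjusted p = 0.0635; 0.0179 without the block). The growth-associated protein gene Gap43 (-1.79 ± 0.23) and Ank3, which encodes ankyrin G of nodes and initial segments (-1.23 ± 0.18), also fell, without overlap. The dimmer Ank3 probe sets had -1.29 and -1.44 and did not pass (limma, adjusted p = 0.0559 and 0.079). Ina, an intermediate filament of neurons, was at 432 to 2786 against 32.9 to 351 and did not pass (limma, adjusted p = 0.0844). Mapt, which encodes tau, had a log2 difference of -0.69 ± 0.12 and did not pass (limma, adjusted p = 0.0714).

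Kinesins carry cargo along axonal microtubules. Of 26 kinesin and axonal transport genes tested, 6 were down-regulated, none was up-regulated and 20 did not pass. Their median log2 fold change was -0.46. Kif5a, the neuronal kinesin-1 heavy chain, lay at 1860.0, 3393, 4269.6, 3307 and 2508 in contralateral samples and 80.2, 64.5, 81.4, 79.7 and 899 in crushed ones. Crushed samples 1 to 4 lay close together, and sample 5 was far above them. Its log2 fold change was -4.56 ± 0.62 (limma, adjusted p = 0.0391), and -5.34 without pair 5 (adjusted p = 0.00134). Kif5c, a related heavy chain, measured 2796, 4100.0, 3703, 3311 and 3263 and then 439.7, 506, 726, 400.1 and 1170.1. Crushed sample 5 was again the highest of its group, by less than for Kif5a. The fold change of Kif5c was -2.51 ± 0.24 (limma, adjusted p = 0.0208). Kif4 (-4.84 ± 0.70), a kinesin better known from mitosis, and Kif21a (-2.28 ± 0.35) fell as well. So did Kif1a, a carrier of synaptic vesicle precursors (-1.89 ± 0.25), and Mapk8ip2, a scaffold that binds kinesin (-3.56 ± 0.47). Another Kif1a probe set (-3.78, limma, adjusted p = 0.0508) and a dimmer Mapk8ip2 probe set (-0.39, limma, adjusted p = 0.377) did not pass. Kif5b, which most cells express, had 5 probe sets with log2 differences of -0.64 to -1.34, all with adjusted p under 0.05, and 1 of them reached 2-fold. Kif1b passed by 1 of 7 probe sets (-1.58), while the brightest had a difference of -0.46.

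**Figure D2:**
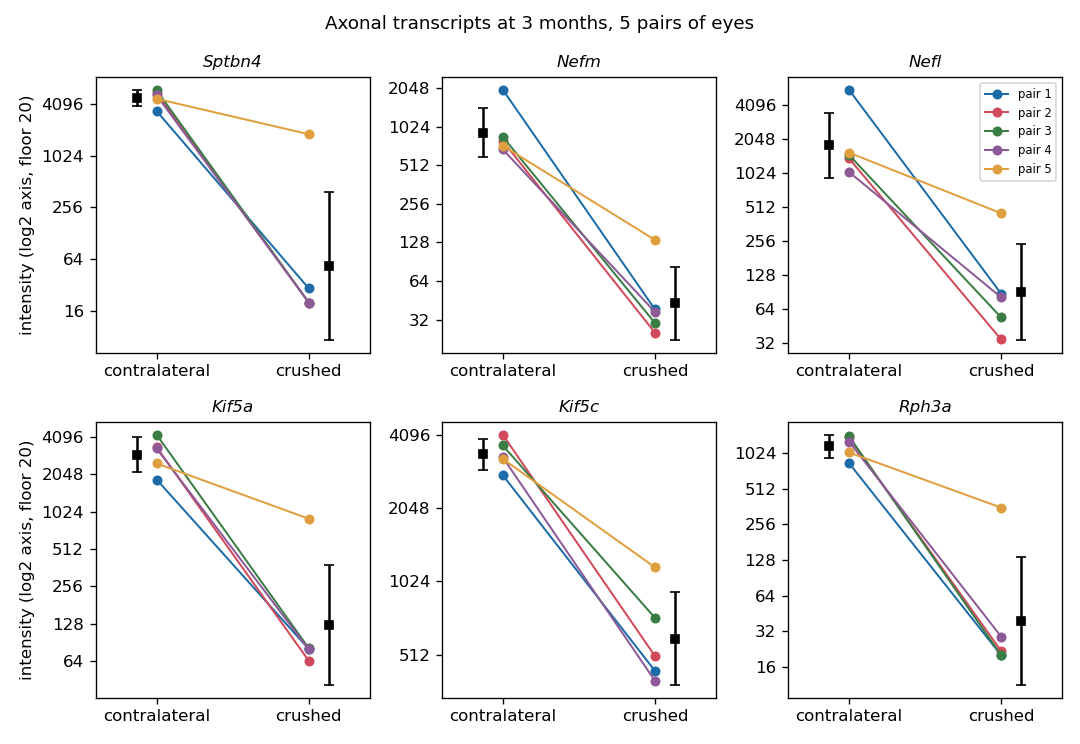
Intensity (log2 axis, values set to at least 20) of 6 axonal genes in contralateral and crushed ONHs, 1 line for each of the 5 pairs; black squares with bars are means ± SD of log2 values. All lines fall, and crushed sample 5 lies above the other crushed samples in all 6 panels.

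Of 27 genes of synaptic vesicles and release, 2 were down-regulated and 25 did not pass, with a median log2 fold change of -0.83 (-1.25 without pair 5). The list's mean log2 level was 11.23 in contralateral sample 1 and 9.26 to 9.76 in the other contralateral samples, against 7.82 to 8.79 in crushed samples 1 to 4. In crushed sample 5 it was 9.61, above contralateral samples 3 to 5. Contralateral sample 1 and crushed sample 5 were among those with high photoreceptor levels, whose part in this list was not tested beyond the covariate. Rph3a, which encodes the vesicle protein rabphilin 3A, lay at 847, 1397, 1429.8, 1289 and 1042 in contralateral samples and at 16.8, 21.7, 17.5, 28.8 and 356 in crushed ones. Crushed samples 1 to 4 were near the floor, sample 5 was not, and the groups did not overlap. Its log2 fold change was -4.92 ± 0.66 (limma, adjusted p = 0.0391). The other member that passed was Cplx2, a complexin that clamps vesicle fusion (-1.30 ± 0.19). Outside the counts by brightest probe set, 1 of 3 probe sets of the related Cplx1 passed (-3.38), another had a difference of -3.25 (limma, adjusted p = 0.0504), and the dimmest -0.35. Rims2, which is on none of the lists and encodes a scaffold of the release site, fell by both of its probe sets (-3.52 and -3.42). The list of nodes of Ranvier and axonal channels had 2 of 17 members down-regulated, Sptbn4 and Ank3, which it shares with the cytoskeleton list. None of 12 retinal ganglion cell genes passed in limma, and 3 were lower at an unadjusted p under 0.05, against 8.00% of all genes. The vesicular glutamate transporter gene Slc17a6 among them was at 169.9 to 2241 against 11.7 to 72.1 (limma, adjusted p = 0.0967). The mean log2 level of the ganglion cell list was 10.43 in contralateral sample 1 and 8.28 to 8.72 in the other contralateral samples. In crushed samples 1 and 5 it was 8.77 and 8.78, and 7.47 to 8.31 in the other crushed samples. For the list of nodes, crushed sample 5 (9.69) lay above contralateral samples 2 to 5 (9.37 to 9.62).

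Other large falls came from genes on no axonal list. Tmem151b, a membrane protein gene, lay at 509 to 961 in contralateral and 40.9 to 261 in crushed samples (-3.53 ± 0.44). Cacng3, an auxiliary subunit of AMPA receptors, fell by 2.90 (SE 0.37) and Tcte1 by 2.91 (SE 0.36). Masp1, a protease gene of the lectin pathway of complement, measured 128, 229, 163, 179.9 and 119.8 in contralateral samples and 19.2, 31.8, 21.8, 17.01 and 20.8 in crushed ones by 1 probe set. All crushed samples lay near the floor, sample 5 included, so the probe set was kept for testing by its contralateral values alone. That probe set fell by 2.82 (SE 0.21, limma, adjusted p = 0.015), but the other 3 probe sets of Masp1 had differences of 0.29 to 0.47 and did not pass. Bola2 likewise passed by 1 of 5 probe sets (-3.22), with the other 4 between -0.24 and -0.07. Of the 68 genes with a changed probe set, 27 had several tested probe sets. All probe sets passed for 5 of these and only some for 22.

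Single myelin genes fell, and most of the others had negative differences that did not pass. Of 35 myelin and oligodendrocyte genes tested, 3 were down-regulated, none was up-regulated and 32 did not pass. The 3 were Mobp, Mag and Olig1. The list's median log2 fold change was -0.67, 32 of the 35 differences were negative, and 16 were lower without overlap, against 3.57% of all genes. At an unadjusted limma p under 0.05 the list had 26 lower and 1 higher, against 8.00% and 6.91% of all genes. Mobp encodes an oligodendrocyte basic protein that compacts myelin. By its brightest probe set it lay at 13984, 15724, 14592, 14429.7 and 12053 in contralateral and 2131, 1936, 2570.2, 4028 and 4044 in crushed samples. The groups were far apart, and crushed samples 4 and 5 were the highest of their group. All 3 probe sets passed, with log2 fold changes of -2.33, -2.52 and -2.56 (limma, adjusted p = 0.0198, 0.0132 and 0.011).

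Mag encodes myelin-associated glycoprotein of the inner myelin membrane. It measured 1343, 3171, 1541, 1653 and 1252 in contralateral samples and 370.1, 567, 808, 573 and 315 in crushed ones. The lowest value was in crushed sample 5, which had the highest axonal levels of the crushed group. Mag fell by 1.76 (SE 0.23, limma, adjusted p = 0.0391; 0.0799 without pair 5). The outer myelin glycoprotein gene Mog was at 3515, 5293, 3343, 3682 and 2806 against 1085, 1697, 2312, 2023 and 903. The groups did not overlap, but its difference of -1.27 ± 0.20 missed the threshold (limma, adjusted p = 0.0549; 0.0299 without the block). Mbp, the major basic protein of myelin, was near the top of the intensity range, at 16617 to 17723 in contralateral and 10700.4 to 13583 in crushed samples by its brightest probe set (-0.51). A dimmer Mbp probe set, at 2799 to 5074 against 747 to 1349.8, fell by 1.98 (SE 0.19), and the 8 probe sets of Mbp ranged from -1.98 to 0.24. Outside the list, Klk6, an oligodendrocyte protease gene (-1.39 ± 0.19), and the sphingosine phosphate receptor gene S1pr5 (-1.61 ± 0.24) also fell.

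Of 9 oligodendrocyte precursor genes, 2 were down-regulated. Olig1, a transcription factor of the whole lineage, lay at 1156, 2178, 1037, 1294 and 1537 in contralateral and 329, 568, 611, 638 and 438 in crushed samples. The groups did not overlap, and the log2 fold change was -1.47 ± 0.22 (limma, adjusted p = 0.047). Cspg5, a membrane proteoglycan, was at 1207, 1468, 1259, 1256 and 1259.8 against 508, 586, 692, 498 and 656. It had the narrowest spread of these genes, and fell by 1.14 (SE 0.14, limma, adjusted p = 0.0391). Olig2, the partner of Olig1, overlapped between groups (209 to 693 against 167 to 267; limma, adjusted p = 0.312).

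**Figure D3:**
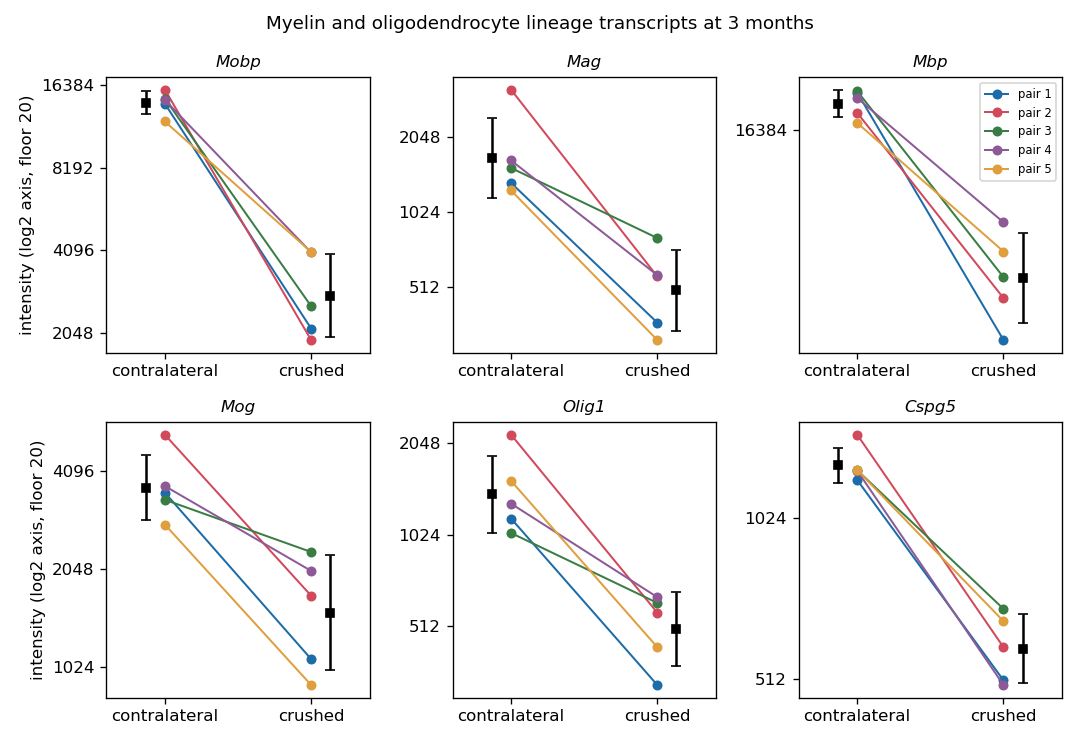
Intensity (log2 axis) of 6 myelin and oligodendrocyte lineage genes in the 5 pairs, with means ± SD of log2 values as black squares; Mbp is shown by its brightest probe set. All lines fall, and crushed sample 5 is the lowest crushed value for Mag and Mog.

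None of 30 astrocyte genes passed, with a median log2 difference of -0.17. At an unadjusted limma p under 0.05, 2 were higher and 8 lower, against 6.91% and 8.00% of all genes. Gfap had a difference of -0.17 ± 0.08 (limma, adjusted p = 0.378). Kcnj10, the inward rectifier channel that buffers potassium, was at 4379 to 5606 against 2653 to 3596 (-0.61 ± 0.08; adjusted p = 0.0391), under the 2-fold minimum. The water channel gene Aqp4 had 0.24 ± 0.08 and the connexin 30 gene Gjb6 0.59 ± 0.16, and neither passed.

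Of 34 reactive astrocyte genes, Lcn2 alone was up-regulated, and the median of the list was 0.20. Lcn2 lay at 119.9, 297, 312, 288 and 383 in contralateral samples and at 1696, 4200.0, 10351, 2744 and 1167 in crushed ones. Contralateral sample 1 was the lowest and crushed sample 3, the sample with the high skeletal muscle level, was the highest, with no overlap. The log2 fold change was 3.51 ± 0.44 (limma, adjusted p = 0.0391), 3.13 without pair 3 (adjusted p = 0.161) and 3.43 without pair 1 (adjusted p = 0.0804). Steap4, a metalloreductase gene, was at 285 to 1306 against 1451 to 3430.2, and Timp1, an inhibitor of matrix proteases, at 425 to 1094 against 1463 to 3089.7. Both were separate between groups and did not pass (limma, adjusted p = 0.179 and 0.0957).

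Neutrophil and lymphocyte genes were among the rises. Of 17 neutrophil genes on the array, 7 were bright enough to be tested, and S100a8 was up-regulated. S100a8 encodes a calcium-binding alarmin, and lay at 36.9, 28.4, 61.3, 35.5 and 17.9 in contralateral and 123, 147, 609, 78.9 and 115 in crushed samples. Crushed sample 3 stood well above the others. The log2 fold change was 2.22 ± 0.33 (limma, adjusted p = 0.047), and 1.95 without pair 3 (adjusted p = 0.166). Its partner S100a9 was at 12.8 to 90.3 against 104 to 863 and did not pass (limma, adjusted p = 0.0963). The mean level of the 7 tested neutrophil genes was 6.33 to 6.85 in contralateral and 7.36 to 8.32 in crushed samples (log2 intensity). A gene could be kept for testing by its crushed values alone, so this mean is not separate support for a rise.

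The promoters of Lcn2 and S100a8, shown because both genes rose and respond to inflammatory signals, and that of the growth factor gene Bmp5, are the 250 bases before each start in RefSeq (GRCm38.p6), read 5′ to 3′ on the gene's strand. Both strands were searched for the NF-kB consensus, the C/EBP letters TTGCNNAA and the AP-1 letters TGANTCA, which do not overlap here, and capitals mark the matches.
Lcn2, chr2:32387740-32387989, minus strand: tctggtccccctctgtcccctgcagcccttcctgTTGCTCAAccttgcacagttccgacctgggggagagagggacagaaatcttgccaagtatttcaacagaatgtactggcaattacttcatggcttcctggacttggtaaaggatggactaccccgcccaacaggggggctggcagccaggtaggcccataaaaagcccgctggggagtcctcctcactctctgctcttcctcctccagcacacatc
S100a8, chr3:90668821-90669070, plus strand: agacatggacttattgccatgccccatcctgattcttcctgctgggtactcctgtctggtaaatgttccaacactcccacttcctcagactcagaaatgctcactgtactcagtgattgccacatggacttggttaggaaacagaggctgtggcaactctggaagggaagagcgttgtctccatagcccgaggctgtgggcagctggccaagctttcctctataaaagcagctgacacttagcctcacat
Bmp5, chr9:75775115-75775364, plus strand: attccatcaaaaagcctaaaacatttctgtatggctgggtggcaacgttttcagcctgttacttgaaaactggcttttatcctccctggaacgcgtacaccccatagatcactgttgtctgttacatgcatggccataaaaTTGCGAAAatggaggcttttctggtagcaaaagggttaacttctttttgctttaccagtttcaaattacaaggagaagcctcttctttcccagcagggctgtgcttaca
The Lcn2 and Bmp5 windows each held 1 match, to the C/EBP letters, and the S100a8 window none. Of 32851 promoters of this length, 9.56% hold the C/EBP letters, 6.75% the AP-1 letters and 7.25% the NF-kB consensus. A looser spelling of that consensus, not shown in capitals, matched Lcn2 once and is held by 45.8% of promoters. A match describes the letters and not a bound site.

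Of 27 T and NK cell genes, 2 were up-regulated and 25 did not pass, with a median log2 difference of 0.95. Of the 27, 10 were higher without overlap, against 3.82% of all genes. The list's mean log2 level was 6.58 to 7.06 in contralateral and 7.43 to 8.00 in crushed samples. It covers the 27 tested of 33 genes on the array, and here too a gene could be kept by its crushed values alone. Itgb7, an integrin chain of lymphocytes, lay at 29.4, 121, 77.4, 168 and 107 against 321, 501, 324, 533 and 462. Contralateral sample 1 was the lowest, and the groups did not overlap. It rose by 2.27 (SE 0.28, limma, adjusted p = 0.0391; 1.97 without pair 1). Cd2, an adhesion receptor of T and NK cells, was at 52.5, 69.8, 97.7, 68.6 and 91.4 against 233, 344, 236, 194 and 218 and rose by 1.69 (SE 0.24, limma, adjusted p = 0.0441). The interleukin 7 receptor gene Il7r (34.8 to 171 against 200.02 to 928) and the chemokine receptor gene Cxcr3 (65.6 to 190.5 against 183 to 373) did not pass.

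Microglia and macrophage genes had mostly positive differences. Of 42, only Fcrls was up-regulated, the median was 0.50, and 38 differences were positive. At an unadjusted limma p under 0.05, 19 were higher and 1 lower, against 6.91% and 8.00% of all genes. The list's mean log2 level was 9.56 in contralateral sample 1 and 10.27 to 10.52 in the other contralateral samples, against 10.54 to 10.86 in crushed ones. Contralateral sample 1 thus stood further from its own group than that group did from the crushed samples, and its part was not tested beyond leaving out pair 1. Fcrls, an Fc receptor-like gene of resident microglia, measured 199, 407, 347, 508 and 462 in contralateral samples and 1245, 1006, 1772, 1305 and 1686 in crushed ones. The groups did not overlap. It rose by 1.91 (SE 0.24, limma, adjusted p = 0.0391). Adgre1 (F4/80) was at 614 to 1423 against 2164 to 3029.7, and Cd68, a lysosomal marker of phagocytes, at 703 to 1409.8 against 1488 to 2562. Both were separate and did not pass (limma, adjusted p = 0.0909 and 0.162). None of 34 genes of phagocytic and lipid-laden microglia, 17 complement genes or 8 MHC class II genes passed. At an unadjusted limma p under 0.05 these lists had 7, 7 and 5 higher and 1, 0 and 0 lower. Over all genes the shares were 6.91% and 8.00%. The list medians were 0.18, 0.41 and 0.67. H2-Aa, a class II chain, was at 842 to 2902 against 3576 to 5015, lowest in contralateral sample 1. The same sample had the lowest mean log2 level of complement genes (9.88, against 10.50 to 10.77 in the other contralateral and 10.76 to 11.08 in crushed samples). It was also the lowest for MHC class II genes, at 8.47, against 9.03 to 9.40 and 9.60 to 9.89.

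Of 64 growth factor genes, 3 were up-regulated. Bmp5 encodes a bone morphogenetic protein, and lay at 190.1, 68.2, 49.8, 144 and 338 in contralateral and 796, 999.9, 662, 943 and 1038 in crushed samples by its brighter probe set. All crushed values exceeded the highest contralateral one, which was in sample 5. Both probe sets passed, with 2.80 and 2.59 (limma, adjusted p = 0.0391 and 0.0203). Hgf, hepatocyte growth factor, was dim in contralateral samples, at 32.3, 26.7, 21.03, 23.7 and 27.2, and lay at 86.3, 111, 112, 73.1 and 91.1 in crushed ones. It rose by 1.85 (SE 0.24, limma, adjusted p = 0.0391). Its crushed values alone kept it for testing. Inhba, the activin beta A subunit, was at 64.8, 120.3, 94.5, 94.6 and 82.6 against 235, 314, 223, 319 and 166 and rose by 1.45 (SE 0.21, limma, adjusted p = 0.0442). Igf1, insulin-like growth factor 1, at 300.1 to 659 against 869 to 2645, and Gdf5, at 40.99 to 62.4 against 84.99 to 227, were separate between groups and did not pass (limma, adjusted p = 0.123 and 0.0507).

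Ccn5, a matricellular protein gene, was the only one of 78 extracellular matrix genes that passed. It lay at 16.2, 29.9, 19.7, 43.4 and 33.5 in contralateral samples, at or near the floor, and at 404, 164, 485, 141 and 367 in crushed ones. The groups were separate, and crushed samples 2 and 4 were the lowest of theirs. Its log2 fold change was 3.31 ± 0.45 (limma, adjusted p = 0.0399), understated by the floor. Of 28 meningeal and connective tissue fibroblast genes, 1 was up-regulated (Bmp5 again) and the median was 0.37. Of the 28, 8 were higher without overlap, against 3.82% of all genes. Slc47a1, an organic cation exporter, was at 117, 1255, 455, 1619 and 2431 against 6202, 6171, 3409.9, 6446 and 6793, and Ccn3 at 188, 1635, 1403, 2116 and 3818 against 9934, 9488, 7682, 8224 and 9095. Contralateral sample 1 was the lowest for both, and neither passed (limma, adjusted p = 0.0888 and 0.102). The list's mean log2 level was 10.45 in that sample and 11.46 to 11.91 in the other contralateral samples, against 11.98 to 12.23 in crushed ones. The part of sample 1 in these rises was not tested beyond leaving out pair 1. The cadherin gene Cdh1 was at 854 to 4598 against 8576 to 11944 and the protease gene Mmp3 at 59.9 to 458 against 514 to 3329, and no cadherin or matrix protease gene passed by its brightest probe set.

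The remaining large rises were of genes on none of the lists. Mgat4c, a glycosyltransferase gene, lay at 36.8 to 78.98 in contralateral and 243 to 375 in crushed samples (2.45 ± 0.27). Npy1r, a neuropeptide Y receptor gene (2.26 ± 0.28), Vnn1, a pantetheinase gene (2.34 ± 0.27), Cyp2s1, a cytochrome P450 gene (2.22 ± 0.20), and Cidea, a lipid droplet protein gene (2.19 ± 0.26), were up-regulated. So were Tspan8 (1.94 ± 0.26), Cyp2b10 (1.77 ± 0.23), the riboflavin kinase gene Rfk by 1 of 3 probe sets (1.79 ± 0.23) and the bicarbonate transporter gene Slc4a10 (1.70 ± 0.13). The signalling inhibitor gene Socs2 (1.65 ± 0.16) and Coch (1.55 ± 0.13) rose as well. Tspan8, Socs2 and Cyp2b10 also passed by a single probe set. The brightest of Tspan8 and Socs2 had 1.73 and 1.26 (limma, adjusted p = 0.0507 for each). The other Cyp2b10 probe set had 0.98 (limma, adjusted p = 0.141). In the Cyp2b10 probe set that passed, 3 contralateral values lay under the floor. That probe set and the one of Cidea were kept for testing by their crushed values alone.

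No gene passed in the lists of B cells, MHC class I, interferon-stimulated genes, chemokines and cytokines, cholesterol synthesis, lysosome, cell division, stress genes, pigment cells, endothelium, pericytes or Schwann cells, whose median log2 differences ran from -0.30 to 0.37. The interferon list was highest in contralateral sample 4, with a mean log2 level of 11.75, against 10.04 to 11.16 in the other samples.

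**Figure D4:**
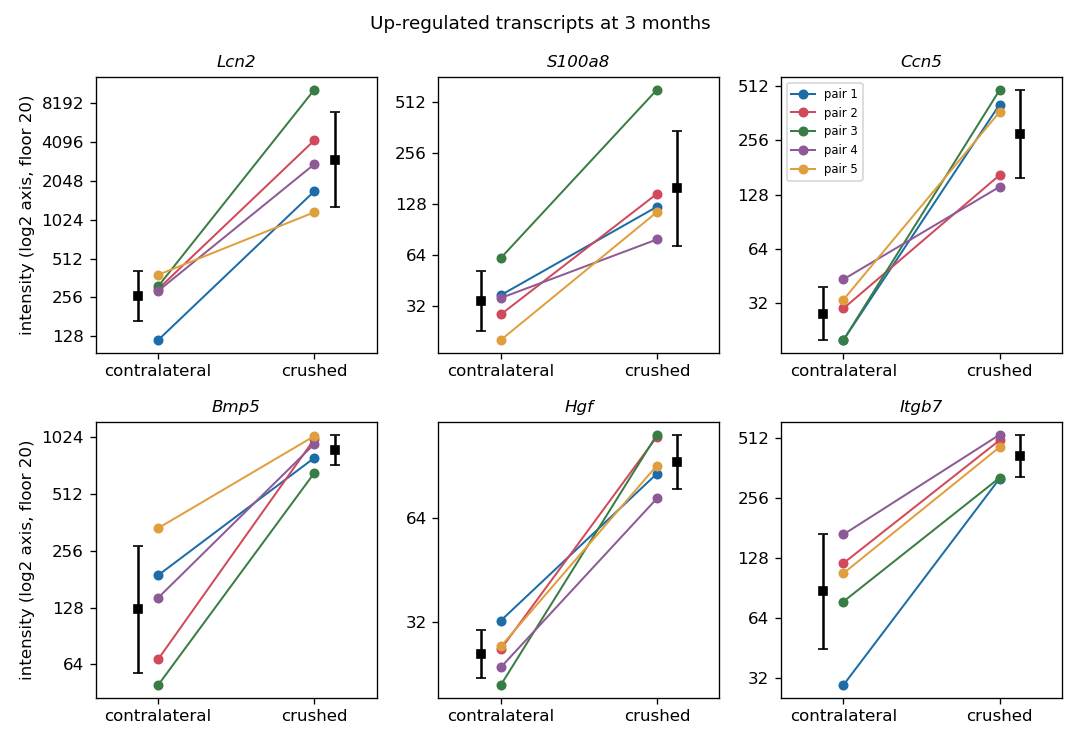
Intensity (log2 axis, values set to at least 20) of 6 up-regulated genes in contralateral and crushed ONHs, 1 line for each of the 5 pairs; black squares with bars are means ± SD of log2 values. All lines rise, and crushed sample 3 is the highest crushed value for Lcn2, S100a8, Ccn5 and, by a small margin, Hgf.

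Set beside the values at 3 weeks, which come from a separately processed batch and were not tested against those at 3 months, most changes at 3 months had the same direction. Of the 39 up-regulated probe sets, 30 were also up-regulated at 3 weeks, and of the 48 down-regulated ones 36 were also down-regulated. At 3 weeks, 2.75% of genes were up-regulated and 1.79% down-regulated. These shares count 1 probe set for each gene, while the changed probe sets include several of the same gene. The estimated fall was larger at 3 months for 38 of the 48, and the estimated rise for 23 of the 39. These probe sets were chosen by their size at 3 months, which favours larger values there, so nothing is read from these counts. Mobp had -0.85 ± 0.12 at 3 weeks and -2.33 ± 0.21 at 3 months, and Kif5a -2.33 ± 0.19 and -4.56 ± 0.62. Lcn2 had 3.88 ± 0.38 at 3 weeks and 3.51 ± 0.44 at 3 months, and Bmp5 2.68 ± 0.34 and 2.80 ± 0.37. Cd2 had 0.54 at 3 weeks and 1.69 at 3 months, and Cyp2b10 0.49 and 1.77. Tcte1 (-0.08 at 3 weeks), Cplx2 (0.01) and the Bola2 probe set (0.25) had values near 0 at 3 weeks and fell at 3 months.

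**Figure D5:**
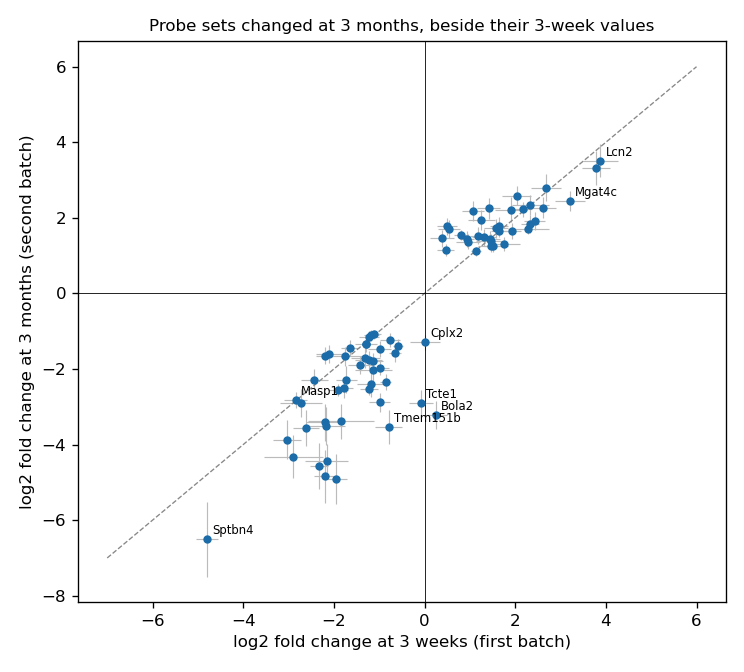
Log2 fold change (± SE) of the probe sets changed at 3 months that name 1 gene, at 3 weeks in the first batch (horizontal) and at 3 months in the second (vertical); the dashed line marks equal values. Most points keep their sign, and falls such as Sptbn4 (-4.79 and -6.50) lie below the line.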

How the data were processed

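Messenger RNA was amplified with the NuGEN Ovation system, biotin labelled and hybridised to Affymetrix mouse genome arrays. The authors normalized the arrays in DChip to an invariant set of probes and modelled perfect match minus mismatch signals, and deposited the resulting intensities on a linear scale. The 3-month arrays were processed as a second batch, and no intensity was compared with the first. Array medians were 494 to 598, and replicate arrays correlated at 0.895 to 0.985. The number of arrays limits the precision.

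The deposited values covered 22690 probe sets, and 64 controls were left out. Of the rest, 20380 name 1 gene, 691 several and 1555 none in the platform annotation, with symbols updated to RefSeq. Values were set to at least 20 (8.54% were lower), taken as log2, and tested when 5 of the 10 arrays reached 50. A probe set could thus be kept by the values of 1 group alone. limma 3.58.1 (R 4.3.3) was fitted with the pair as a block and eBayes with an intensity trend. Pairing follows the replicate number, taken to join the eyes of the same mice. The 3-week values come from a model of the first batch. Probe sets passed at a Benjamini-Hochberg adjusted p under 0.05 and 2-fold. The fit was run on simulated data with independent noise and a shared shift for each pair. These had no floor and no signal shared by single samples, such as that of photoreceptors, so they do not test how such samples act on the fit.

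Named genes were the 15 largest rises and falls that moved the same way in 5 of 5 pairs, changed members of the lists, up to 4 further members with the lowest p, and genes the study names at this time. Some further changed genes were named after their values were seen. Members and lists were chosen with earlier results of these data known. Of 23 tested genes that the study names, 2 were up-regulated and 7 down-regulated, which is not independent evidence. Alternatives changed the block, pairs, floor, filter, scaling, variance model, a photoreceptor covariate and the test.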

Additional observations from a re-analysis of the deposited data

Results flagged for a closer look

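In the groups of 5 samples, the highest or lowest log2 level of a named gene was set against Dixon's critical value of 0.71. Of 254 groups examined, 35 held such a sample. A rate of about 1 in 20 would hold for independent normal values. These values are neither, since some tie at the floor and the same samples recur across genes, so nothing is read from the count. For Bola2, 4 crushed values were at the floor. The sample's log2 level is given after each gene.

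Crushed sample 5 stood above the other crushed samples for Bola2 (6.00), Kif4 (8.76), Kif5a (9.81), Kif5c (6.42), Mapk8ip2 (10.69), Nefm (7.07), Rims2 (10.81), Rph3a (8.47), Sptbn4 (10.83) and Tmem151b (8.03). These are mostly axonal genes, and the photoreceptor level of this sample was 11.41. Contralateral sample 1 stood above its group for Aldoc (12.97), Cplx1 (11.21), Cplx1 (10.96), Cplx2 (10.59), Ina (11.44), Nefl (12.45), Nefm (10.96) and Slc17a6 (11.13), in which Cplx1 appears with both of its named probe sets. It stood below its group for Adgre1 (9.26), Apoc2 (5.16), Cd55 (8.45), Cdh1 (9.74), Foxd1 (9.32), Gjb6 (10.76), H2-Aa (9.72), Kif5c (7.75), Lcn2 (6.91) and Timp1 (8.73). Its photoreceptor level was 12.78. Crushed sample 3 stood high for Adgre1 (11.56), Mmp3 (11.70) and S100a9 (9.75) and low for Slc47a1 (11.74). Single samples stood high for Cspg5 (10.52) in contralateral sample 2, Cyp2b10 (4.80) in contralateral sample 5 and Masp1 (4.99) in crushed sample 2.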

How the results depend on the processing

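As reported, 87 probe sets passed, 39 up-regulated and 48 down-regulated. Without the pair as a block (no replicate block) it was 302, 176 and 126. With a pair left out, the total ranged from 0 to 71, the up-regulated from 0 to 16 and the down-regulated from 0 to 55. Without a filter on dim probe sets 6, 4 and 2 passed, and without the intensity trend 26, 16 and 10. With the photoreceptor level as a covariate, 48, 18 and 30 passed with the block and 214, 110 and 104 without it. With arrays shifted to a common median, 66 were up-regulated, and by the 3 criteria of the methods 74, with no correction for multiple tests. By the methods' paired test after Benjamini-Hochberg adjustment 0, 0 and 0 passed, while 2257 probe sets had an unadjusted p under 0.05 in it and 2649 in limma. The other counts stayed within 1.5 times under floors of 5 and 50, a filter at 200, quantile normalization, robust variances and no fold minimum. The cause of these shifts was not tested.

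Of 43 named probe sets that passed, none turned its direction in the fits that gave a value for each. For the fits with a pair left out this was fixed in advance, since all pairs moved the same way. Fits without the block, with another filter or with another variance model leave the fold change as it is, so direction could not turn there either. Of the 43, 0 still passed without pair 1, 2, 3 or 4, and 28 without pair 5. Without the filter 1 still passed, and without the intensity trend 11. Under the filter at 200, 32 of the 43 were tested. The methods' criteria, the methods' paired test and the fit with no fold minimum were compared by counts alone. Same-numbered samples were taken as the eyes of the same mice, but their deviations from the group means did not correlate above 0 (-0.45 to -0.04). The highest correlation with a sample of another number, picked from several, was 0.25 to 0.48, above the same-number value in every pair. Whether the numbers join the eyes of the same mice was not tested further. Genes near background are the least certain, since the floor shrinks their fold changes.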
